A study of Homo sapiens with 10 samples.

Results

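The genes described here are the replication-dependent histone genes, taken as all rows of the expression table whose symbol began with HIST1H, HIST2H, HIST3H or HIST4H. This rule uses the symbol only and gave 73 of 23284 genes, 56 of them in the large HIST1 cluster on chromosome 6, 13 in HIST2 and 3 in HIST3 on chromosome 1, and 1 in HIST4. By class they comprised 6 linker histone H1 genes, 18 H2A, 20 H2B, 14 H3 and 15 H4 genes, and RefSeq lists 3 of the 73 as transcribed pseudogenes. The samples were K562 cells, an established human chronic myeloid leukemia line, grown for 48 h with vehicle (DMSO), with CBP30 at 2 or 5 µM, or with I-CBP112 at 2 or 5 µM. Both compounds bind the bromodomains of the acetyltransferases CREBBP and EP300, and each of the 5 conditions had 2 biological replicates. The comparison addresses which histone mRNAs change when these bromodomains are occupied, at which concentration and by which compound.

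Histones package DNA into nucleosomes, with H2A, H2B, H3 and H4 in the core particle and H1 on the linker DNA. The replication-dependent genes are switched on in S phase, they lack introns as a rule, and their mRNAs normally end in a conserved stem-loop bound by SLBP instead of a poly(A) tail. Some of these genes also give polyadenylated mRNA, best known from cells that differentiate or leave the cell cycle. The libraries were made from poly(A)+ RNA, so the values below describe the polyadenylated transcripts that were captured and not the whole histone mRNA pool. In RNA from a cell population, more cells in the phase that makes a transcript and more transcript per cell cannot be told apart.

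The values are FPKM, fragment counts scaled for transcript length and library size, so genes stand on a scale per length. Their sum over the table ranged from 547504 to 689095 FPKM between libraries, and read counts are not part of the table, so depth is unknown. When genes with long transcripts found in only 2 to 4 libraries were taken as 1 read each (604 genes), relative depth ranged from 0.917 to 1.08 times the mean. The erythroid genes TAL1 (at least 16.9 FPKM) and HBZ (at least 80.7) were expressed in every library, while the T cell marker CD3E, the B cell marker MS4A1, COL1A1 and ALB stayed at or below 3.31 FPKM, and the epithelial marker EPCAM ranged from 31.8 to 59.7 FPKM. Replicate 1 of 2 µM CBP30 stood apart, because the median of the quintile of tested genes with the shortest transcripts was 0.30 above the DMSO mean on the log2(FPKM + 1) scale and that of the longest was 0.30 below. In the other libraries the shortest quintile lay between −0.12 and 0.0035. Of the 44 tested histone genes with a known transcript length 43 belonged to this quintile, so the counts and the differences singled out at 2 µM CBP30 are given with and without that library.

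The stem-loop was looked for in the genome as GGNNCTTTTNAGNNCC within 1000 bases downstream of each start site, on the coding strand. It was found for 70 of the 73 genes (95.9%) and for 3 of 4109 other protein coding genes on the same chromosomes (0.073%). HIST1H2BI, HIST1H3E and HIST1H4L had no match to these letters. The 6 genes below carry the main results on level, size of change and direction, and each sequence is the coding strand of hg19 with the 16 bases of the stem-loop in capitals and 5 bases on either side. All 6 lie on the minus strand in the last part of a single-exon transcript.
HIST1H1C (chr6:26055967-26055992): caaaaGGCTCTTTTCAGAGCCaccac
HIST1H2BK (chr6:27114140-27114165): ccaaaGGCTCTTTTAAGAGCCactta
HIST1H2BC (chr6:26123695-26123720): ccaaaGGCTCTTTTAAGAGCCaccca
HIST1H3D (chr6:26197012-26197037): ccaaaGGCTCTTTTCAGAGCCaacca
HIST1H4H (chr6:26285354-26285379): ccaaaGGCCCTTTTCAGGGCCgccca
HIST3H2A (chr1:228645065-228645090): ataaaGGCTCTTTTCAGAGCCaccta

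The form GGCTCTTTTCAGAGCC was the most frequent, with 41 genes of the classes H1, H2A, H2B and H3. The H4 genes had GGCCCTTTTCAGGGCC (10 genes) or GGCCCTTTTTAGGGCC (4 genes), and 10 genes, 5 of them H2B, had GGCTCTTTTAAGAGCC. The annotated transcript of HIST1H1C ended 4 bases after the stem-loop, and those of HIST1H2BK and HIST1H3D 5 bases after it. For HIST1H4H, HIST3H2A and HIST1H2BC the annotation also holds longer transcripts that reach 7522, 22592 and 37155 bases of genome past it. An AATAAA, the usual signal for polyadenylation, began 12 bases after the stem-loop of HIST1H1C. The first AATAAA lay 1552 bases after that of HIST1H2BK, 1129 after that of HIST1H2BC and 1205 after that of HIST3H2A. Within 2000 bases none was found for HIST1H3D and HIST1H4H.

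All 5 classes were higher in each treatment than in DMSO, and the most abundant transcripts came from a few genes. The summed level of the 73 genes was 2606 and 2512 FPKM in DMSO, 7797 and 5777 at 2 µM CBP30, 7368 and 7453 at 5 µM CBP30, 3942 and 3986 at 2 µM I-CBP112, and 5842 and 5558 at 5 µM I-CBP112. No treated library overlapped the DMSO libraries, and the ratios of the means to DMSO were 2.65, 2.90, 1.55 and 2.23 in that order. Without replicate 1 of 2 µM CBP30 the first ratio was 2.26. The genes made up 0.417% of the summed FPKM of the table in DMSO and 1.35% with 5 µM CBP30. These sums are descriptions without a test.

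**Figure D1:**
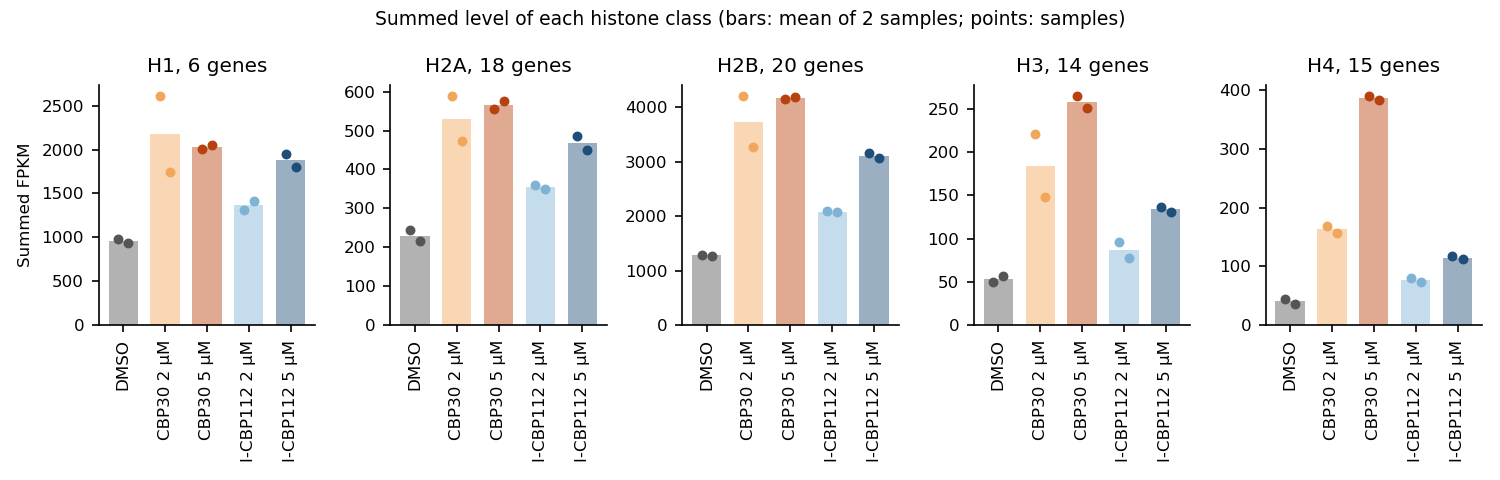
Summed FPKM of each histone class (vertical axes, linear from 0) in the 5 conditions, with bars for the mean of 2 samples and points for samples. The H4 sum shows the largest ratio to DMSO with 5 µM CBP30 (9.59), and the H1 sum with 5 µM CBP30 lies close to that with 5 µM I-CBP112.

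H2B had the highest summed level, with 1281 ± 11.7 FPKM in DMSO and 4172 ± 28.4 with 5 µM CBP30 (mean ± SD, n = 2), a ratio of 3.26. H1 went from 955 ± 35.3 to 2028 ± 33.7 FPKM (ratio 2.12), and HIST1H1C alone held between 99.2% and 99.8% of it. H2A went from 230 ± 19.1 to 566 ± 13.2 FPKM (ratio 2.46). These 3 classes were followed at lower levels by H3 and H4, whose ratios were the highest. H3 went from 53.3 ± 4.89 to 258 ± 10.2 FPKM (ratio 4.84). H4 went from 40.4 ± 5.36 to 387 ± 5.19 FPKM (ratio 9.59), of which HIST1H4H made up between 57.7% and 86.6%. Without HIST1H4H the H4 mean was 15.7 FPKM in DMSO and 53.1 with 5 µM CBP30. By location, the mean HIST1 sum was 2.95 times and the HIST2 sum 4.10 times its DMSO value with 5 µM CBP30, while the HIST3 sum, which was nearly all HIST3H2A, was 0.631 times its DMSO value.

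The 73 genes covered a wide range of levels. At the top stood HIST1H2BK, a core H2B gene, with 1047 and 1026 FPKM in DMSO, and HIST1H1C, which encodes the linker histone H1.2, with 977 and 927 FPKM. HIST1H2AC followed with 107 and 98.9 FPKM, then HIST3H2A with 77.6 and 65.5. In all, 24 genes averaged 5 FPKM or more across the 10 samples, 11 of them H2B, 6 H2A, 3 H3, 3 H4 and 1 H1. At the other end 12 genes were listed at 0 in all samples, and another 15 had means of at most 0.425 FPKM, below the limit for testing. Among the 12 were HIST2H2AA3 and HIST2H2AA4, HIST2H3A and HIST2H3C, and HIST2H4A and HIST2H4B, near-identical copies for which between 52.4% and 100% of all 50-base stretches of the transcript recur in other histone genes. An entry of 0 for these copies is therefore no measure of their expression. The testis genes HIST1H2BA and HIST1H2AA were also listed at 0, while HIST1H1T, the testis-specific linker histone, had between 0.260 and 0.885 FPKM.

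**Figure D2:**
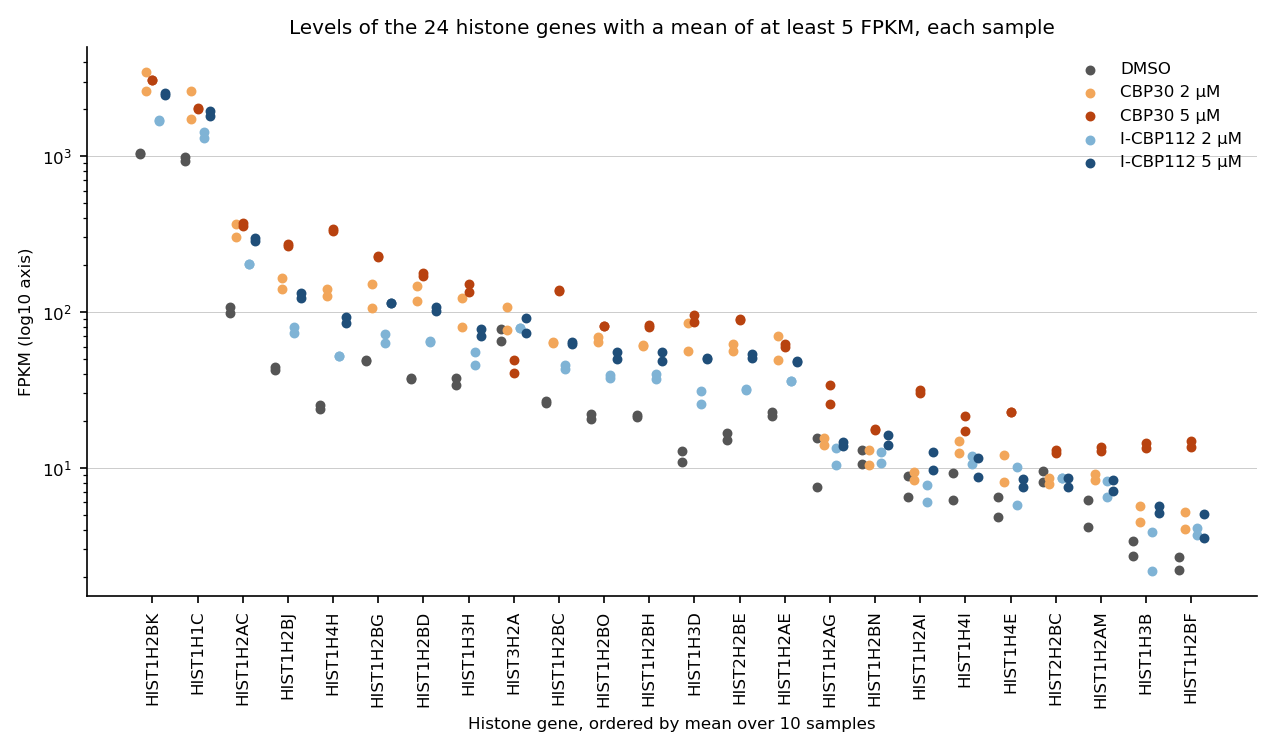
FPKM (log10 axis) of the 24 genes averaging 5 FPKM or more, in each of the 10 samples, ordered by mean. The points of 5 µM CBP30 lie above both DMSO points for every gene shown except HIST3H2A, where they lie below.

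Tests were made with limma on log2(FPKM + 1) for the 46 histone genes averaging 0.5 FPKM or more across the samples, together with all other such genes (12788 in all), and a gene was called at a Benjamini-Hochberg adjusted p under 0.05. Differences on this scale understate the change of genes with low values. With 5 µM CBP30, 34 of the 46 were higher than in DMSO (21.2% of all tested genes were) and 1 was lower (25.4% of all). The median difference of the 46 was 1.23, against −0.0096 over all tested genes. Since the limit on the mean includes treated samples, the 5 genes that passed it with less than 0.5 FPKM in DMSO could pass through a treated group, and 4 of them were called higher. Of the other 41, 30 were called higher. All 34 had both treated samples above both DMSO samples, but they were picked by this same comparison, so this adds no support. By class, 4 of 4 tested H1 genes, 7 of 12 H2A, 13 of 15 H2B, 5 of 7 H3 and 5 of 8 H4 genes were higher. Among genes with a DMSO mean of 0.5 FPKM or more these were 3 of 3 H1, 7 of 12 H2A, 13 of 15 H2B, 4 of 6 H3 and 3 of 5 H4 genes, without HIST1H1T, HIST2H3D, HIST1H4B and HIST1H4D.

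The largest difference was that of HIST1H4H, a core H4 gene. Its level was 25.5 and 23.8 FPKM in DMSO, 140 and 126 at 2 µM CBP30, 338 and 329 at 5 µM CBP30, 52.3 and 52.2 at 2 µM I-CBP112, and 93.1 and 85.3 at 5 µM I-CBP112. The 5 conditions did not overlap, and all treated samples were above DMSO. The difference with 5 µM CBP30 was 3.71 (SE 0.07, adjusted p = 2.7e-07 with limma), a ratio of mean FPKM of 13.6, and it ranked 10th among all 12788 genes when ordered from the largest rise.

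HIST1H3D, a core H3 gene, followed. It had 10.9 and 12.8 FPKM in DMSO, 85.0 and 56.0 at 2 µM CBP30, 85.5 and 95.3 at 5 µM CBP30, 31.2 and 25.8 at 2 µM I-CBP112, and 50.5 and 50.1 at 5 µM I-CBP112. All treated samples lay above DMSO, and the CBP30 concentrations lay next to each other. Its difference with 5 µM CBP30 was 2.83 (SE 0.19, adjusted p = 4.73e-05 with limma). HIST1H3H, the most abundant H3 gene, rose by 1.96 from a mean of 35.8 FPKM, HIST1H3B by 1.87 from 3.08 and HIST1H3F by 1.18 from 0.783. HIST2H3D rose by 1.79 but was listed at 0 in 1 DMSO sample and shares 32.6% of its 50-base stretches with HIST2H3A and HIST2H3C, so its value is uncertain.

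Among H2B genes, HIST1H2BK was the most abundant in every sample, with 3454 and 2621 FPKM at 2 µM CBP30, 3047 and 3070 at 5 µM CBP30, 1697 and 1674 at 2 µM I-CBP112, and 2544 and 2463 at 5 µM I-CBP112. All 8 treated samples were above the 2 DMSO samples, and the difference with 5 µM CBP30 was 1.56 (SE 0.13, adjusted p = 0.000104 with limma). Larger differences were found for H2B genes of middle level. HIST1H2BJ rose by 2.60 from a mean of 43.5 FPKM, HIST2H2BE by 2.41 from 16, HIST1H2BC by 2.32 from 26.6, HIST1H2BG by 2.2 from 48.5, HIST1H2BD by 2.19 from 37.4 and HIST1H2BF by 2.15 from 2.44. HIST1H2BO and HIST1H2BH rose by 1.88 and 1.87, and HIST1H2BE and HIST1H2BB by 0.91 and 0.80 from means of 0.908 and 0.653 FPKM. The smallest H2B differences called were 0.54 for HIST1H2BN and 0.49 for HIST2H2BC, a gene that RefSeq lists as a pseudogene. HIST1H2BE shares 21.9% and HIST1H2BN 24.3% of 50-base stretches with other histone genes, among them the abundant HIST1H2BK. Reads of these genes could be split between them, so the values of HIST1H2BE and HIST1H2BN are uncertain. HIST1H2BL and HIST3H2BB did not pass the test, with differences of 0.59 and 0.25.

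Of the linker histone genes, HIST1H1C had 2606 and 1733 FPKM at 2 µM CBP30, 1988 and 2036 at 5 µM CBP30, 1308 and 1414 at 2 µM I-CBP112, and 1944 and 1801 at 5 µM I-CBP112. Again no treated sample overlapped DMSO, and the difference with 5 µM CBP30 was 1.08 (SE 0.17, adjusted p = 0.00219 with limma). The other H1 genes were far less abundant. HIST1H1D, which encodes H1.3, went from 1.26 and 1.15 FPKM to 10.1 and 9.82, a difference of 2.31 (SE 0.08, adjusted p = 2.84e-06 with limma). HIST1H1E and HIST1H1T rose by 1.18 and 0.43, the latter inside the annotated span of HIST1H2BC on the same strand.

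Of the H2A genes, HIST1H2AC was the most abundant with 356 and 373 FPKM at 5 µM CBP30, a difference of 1.81 (SE 0.09, adjusted p = 1.62e-05 with limma) with no overlap with DMSO. HIST1H2AD, HIST1H2AI, HIST1H2AE, HIST1H2AG, HIST1H2AM and HIST1H2AH rose by 2.01, 1.88, 1.43, 1.35, 1.23 and 0.74. HIST1H2AI shares 63.5% of its 50-base stretches with HIST1H2AJ, so reads of these genes could be split between them. Among the remaining H4 genes HIST1H4D, HIST1H4E and HIST1H4I rose by 2.37, 1.84 and 1.23, where HIST1H4D had 0.911 and 0 FPKM in DMSO and passed the limit for testing through treated samples, and HIST1H4B by 0.97 with both DMSO samples listed at 0. Of the 34 higher genes, 7 lost their call when certain single samples were left out. HIST1H2AG lost it without replicate 1 of 5 µM CBP30, and HIST1H1T and HIST1H2BN without DMSO replicate 1 or either 5 µM CBP30 sample. HIST1H2AD and HIST1H2AH lost it without either DMSO sample or without replicate 2 and replicate 1 of 5 µM CBP30, respectively. HIST1H2BB lost it when any 1 of 5 samples was left out (both DMSO, both 5 µM I-CBP112, replicate 2 of 5 µM CBP30), and HIST1H4B when any 1 sample outside the 2 µM CBP30 condition was.

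**Figure D3:**
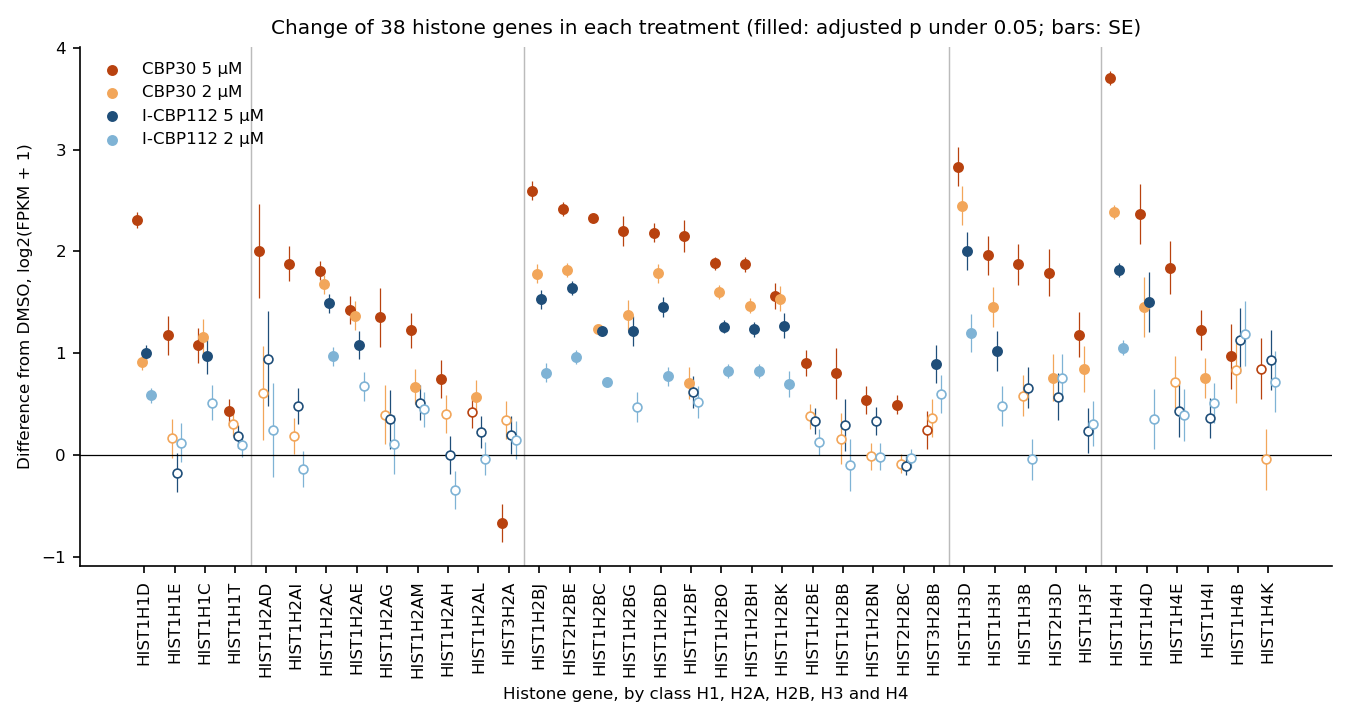
Difference from DMSO on the log2(FPKM + 1) scale (vertical axis, bars show the SE) for 38 histone genes, by class, in the 4 treatments, with filled points for an adjusted p under 0.05. The differences with 5 µM CBP30 reach 3.71 for HIST1H4H, and HIST3H2A is the only filled point below 0.

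HIST3H2A was the single histone gene called lower than in DMSO. It had 77.6 and 65.5 FPKM in DMSO, 108 and 76.5 at 2 µM CBP30, 40.3 and 48.8 at 5 µM CBP30, 79.3 and 78.6 at 2 µM I-CBP112, and 91.9 and 73.0 at 5 µM I-CBP112. The 5 µM CBP30 samples were below all others. The difference from DMSO was −0.67 (SE 0.19, adjusted p = 0.0224 with limma), and it no longer passed the test without replicate 1 of DMSO (adjusted p = 0.128 with limma) or without replicate 1 of 5 µM CBP30 (adjusted p = 0.131 with limma). It was also lower with 5 than with 2 µM CBP30, with a difference of −1.02 (SE 0.19, adjusted p = 0.00887 with limma), a call lost without replicate 1 of 5 µM CBP30. Against 5 µM I-CBP112 the difference was −0.87 (SE 0.19, adjusted p = 0.0129 with limma), and it no longer passed without replicate 1 of 5 µM CBP30 or replicate 1 of 5 µM I-CBP112.

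With 2 µM CBP30, 22 of the 46 genes were higher than in DMSO (15.9% of all tested genes were) and 0 were lower (16.3% of all), also at an unadjusted p under 0.05. HIST1H4D and HIST2H3D of the 22 had DMSO means under 0.5 FPKM and could pass the limit for testing through treated samples. The median difference of the 46 was 0.709, against 0.0051 over all genes. Without replicate 1 of this condition 19 genes were higher, 17 of them among the 22, and HIST1H2AL, HIST1H2AM, HIST1H3F, HIST1H4I and HIST2H3D were no longer called. HIST1H2AL (0.57) was called here and not with 5 µM CBP30 (0.42, adjusted p = 0.0672 with limma). In a fit of the 4 samples of this comparison alone 10 were higher. The largest differences at 2 µM were 2.45 for HIST1H3D, 2.38 for HIST1H4H, 1.82 for HIST2H2BE, 1.78 for both HIST1H2BJ and HIST1H2BD and 1.68 for HIST1H2AC. Without replicate 1 they were 2.16, 2.31, 1.75, 1.66, 1.63 and 1.54 in the same order of genes, and HIST1H4H was then the largest of these.

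Between 5 and 2 µM CBP30, 23 genes were higher at 5 µM (17.6% of all tested genes were) and 1, HIST3H2A, was lower (21.3% of all). Without replicate 1 of 2 µM CBP30 the counts were 22 and 1, of which 17 were among these 24 (HIST1H2AD, HIST1H2AG, HIST1H2AM, HIST1H4D, HIST1H4E, HIST1H4K and HIST2H3D lost their call), after removal of the length trend 35 genes were higher, and without replicate 1 or 2 of 5 µM CBP30 9 or 10 were. In a limma fit of these 4 samples alone 0 were called, with 25 higher at an unadjusted p under 0.05. The histone genes differed in their pattern of calls. Of the 21 genes higher than in DMSO at both concentrations, 13 were higher still at 5 µM, among them HIST1H4H (difference 1.32 between concentrations, SE 0.07, adjusted p = 0.000177 with limma), HIST1H1D (1.40), HIST1H2BF (1.44) and HIST1H2BC (1.09). The share of all tested genes with these 3 calls was not computed. HIST1H4D and HIST2H3D of the 13, and HIST1H4K of the 23, had DMSO means under 0.5 FPKM. They could pass the limit for testing through treated samples. For the other 8 of the 21, HIST1H1C, HIST1H2AC, HIST1H2AE, HIST1H2BK, HIST1H3D, HIST1H3F, HIST1H3H and HIST1H4I, no difference between the concentrations passed the test. The 95% interval of that difference was −0.272 to 0.32 for HIST1H2BK and −0.489 to 0.331 for HIST1H1C. Its sign was therefore not settled for either gene in this fit. For HIST1H1C the difference of −0.08 became 0.41 (adjusted p = 0.00579 with limma) after quantile normalization and 0.27 (adjusted p = 0.0308 with limma) after removal of the trend with transcript length.

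A group of 13 genes passed the test against DMSO with 5 µM CBP30 and in no other treatment. Of these, 9 were higher than with 2 µM CBP30 and 8 higher than with 5 µM I-CBP112. The group was picked by its 5 µM CBP30 values, so these counts add no support. The share of all tested genes with this pattern was not computed, and is at most the 21.2% higher with 5 µM CBP30. HIST1H1T and HIST1H4B of the 13 had DMSO means under 0.5 FPKM and could pass the limit for testing through treated samples. Among the 13 were also HIST1H2AI, HIST1H3B, HIST1H4E, HIST1H2AG and HIST1H1E. HIST1H2AI had 6.53 and 8.93 FPKM in DMSO, 8.32 and 9.35 at 2 µM CBP30, 30.1 and 31.7 at 5 µM CBP30, 7.77 and 6.04 at 2 µM I-CBP112, and 9.65 and 12.6 at 5 µM I-CBP112. The 5 µM CBP30 samples stood above all others, and the difference between the CBP30 concentrations was 1.70 (SE 0.18, adjusted p = 0.00157 with limma). For HIST1H3B, a core H3 gene, the same difference was 1.29 (adjusted p = 0.00578 with limma), and for HIST1H4E, a core H4 gene, it was 1.12 (adjusted p = 0.0172 with limma), a call lost without replicate 1 of 2 µM CBP30 or either 5 µM CBP30 sample. HIST1H4K, with a mean of 0.159 FPKM in DMSO, passed only the test between the CBP30 concentrations (0.89, adjusted p = 0.0498 with limma) and lost that call when any 1 sample outside the 5 µM I-CBP112 condition was left out. It shares 92.6% of its 50-base stretches with HIST1H4J, so its value is uncertain, and it could pass the limit for testing through treated samples.

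**Figure D4:**
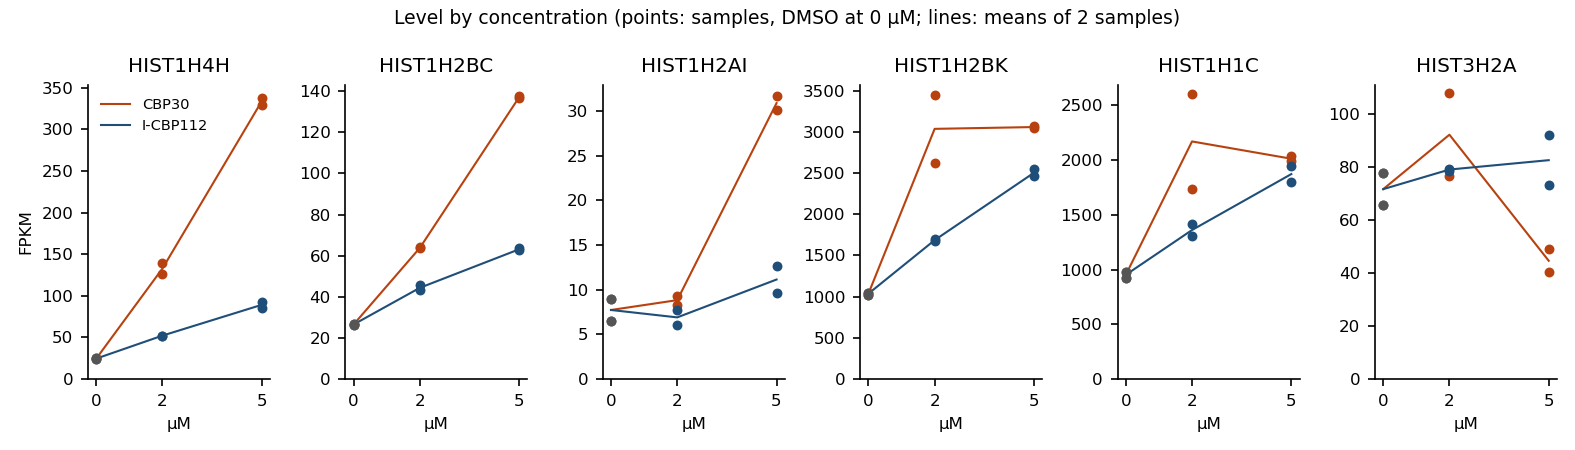
FPKM (linear axes from 0) of 6 histone genes by concentration of CBP30 or I-CBP112, with points for samples, DMSO at 0 µM and lines through the means of 2 samples. HIST1H4H and HIST1H2BC climb with both concentrations, HIST1H2AI stands apart at 5 µM CBP30, the 2 µM and 5 µM CBP30 samples of HIST1H2BK and HIST1H1C overlap, and HIST3H2A is lowest at 5 µM CBP30.

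Fewer histone genes passed the test with I-CBP112, and none was lower. At 5 µM, 17 of the 46 were higher than in DMSO (3.84% of all tested genes were) and 0 lower (3.28% of all), also at an unadjusted p under 0.05, with a median difference of 0.543 against −0.0042 over all genes. Leaving out either 5 µM I-CBP112 sample left 11, with HIST1H1C, HIST1H2AE, HIST1H2BG, HIST1H3H, HIST1H4D and HIST3H2BB no longer called. At 2 µM, 11 were higher (0.868% of all) and 0 lower (0.735% of all), also at an unadjusted p under 0.05, with a median of 0.419 against −0.0037. This count fell to between 4 and 6 without a DMSO or a 2 µM I-CBP112 sample, to 7 without either 5 µM CBP30 sample and to 4 in a fit of the 4 samples compared. By class at 5 µM, 2 H1, 2 H2A, 9 H2B, 2 H3 and 2 H4 genes were higher. Of these, HIST1H4D had a DMSO mean under 0.5 FPKM and could pass the limit for testing through treated samples.

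The largest differences at 5 µM I-CBP112 were 2.00 for HIST1H3D (SE 0.19, adjusted p = 0.00206 with limma), 1.82 for HIST1H4H (SE 0.07, adjusted p = 3.58e-05 with limma), 1.64 for HIST2H2BE (SE 0.07, adjusted p = 5.7e-05 with limma) and 1.53 for HIST1H2BJ (SE 0.09, adjusted p = 0.000261 with limma). HIST3H2BB was higher by 0.90 (adjusted p = 0.0355 with limma) in this comparison alone among those with DMSO, from 0.585 and 0.690 FPKM to 2.15 and 1.95, and did not pass when any 1 of the DMSO and I-CBP112 samples was left out. Between 5 and 2 µM I-CBP112 only 7 of all 12788 genes were higher (0.0547%) and 1 lower (0.00782%). The 7 included 3 histone genes, HIST1H4H (0.76, SE 0.07, adjusted p = 0.0179 with limma), HIST1H2BC (0.50, SE 0.04, adjusted p = 0.0179 with limma) and HIST2H2BE (0.68, SE 0.07, adjusted p = 0.0319 with limma). The number of histone genes in this comparison ranged from 0 to 9 when single samples were left out (9 without either 2 µM CBP30 sample, at most 1 without any other), and 0 were lower with limma, 1 at an unadjusted p under 0.05. The 4 comparisons with DMSO share their control samples. In all 4, the 11 genes HIST1H1D, HIST1H2AC, HIST1H2BC, HIST1H2BD, HIST1H2BH, HIST1H2BJ, HIST1H2BK, HIST1H2BO, HIST1H3D, HIST1H4H and HIST2H2BE were higher. Of all tested genes, at most the 0.868% higher with 2 µM I-CBP112 can be higher in all 4. The limits given above for the calls at 2 µM I-CBP112 also hold for this list.

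At matched concentrations CBP30 gave the larger rise for most of the called genes. At 5 µM, 25 histone genes were higher with CBP30 than with I-CBP112 (13.6% of all tested genes were) and 2, HIST3H2A and HIST3H2BB, were lower (17.9% of all). Without replicate 1 of 5 µM I-CBP112 the counts were 15 and 0, and without replicate 1 of 5 µM CBP30 the second was also 0. HIST1H4H differed most, by 1.89 (SE 0.07, adjusted p = 1.21e-05 with limma), followed by HIST1H2BF (1.53), HIST1H4E (1.41, not called without replicate 1 of 5 µM I-CBP112) and HIST1H2AI (1.40). The abundant HIST1H2BK and HIST1H1C did not pass, with differences of 0.29 (95% interval −0.00694 to 0.585) and 0.10 (−0.305 to 0.515). At 2 µM, 18 genes were higher with CBP30 (7.13% of all) and 0 lower with limma (8.45% of all; 2 at an unadjusted p under 0.05), among them HIST1H4H by 1.33 and HIST1H3D by 1.25. The count at 2 µM was 14 without replicate 1 of 2 µM CBP30, 11 or 9 without replicate 1 or 2 of 2 µM I-CBP112, 11 after removal of the length trend and 0 in a limma fit of these 4 samples alone, where 18 were higher at an unadjusted p under 0.05. HIST2H3D of the 25 genes and HIST1H4D of the 18 had DMSO means under 0.5 FPKM. Both could pass the limit for testing through treated samples. HIST1H2BK differed by 0.84 and HIST1H1C by 0.64 at 2 µM. Without replicate 1 of 2 µM CBP30 the differences were 0.64 for HIST1H2BK, 0.35 for HIST1H1C, 1.26 for HIST1H4H and 0.96 for HIST1H3D, and these 4 remained called.

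Many H2A and H2B genes lie head to head and share a short region between their start sites. There were 13 such pairs with between 193 and 288 bases between the annotated starts. The region of the most unequal pair is shown first, followed by a pair in which both genes rose and by the pair that holds the gene that fell. Each is the plus strand of hg19, in capitals where it matches CCAAT, the octamer ATTTGCAT or TATAAA on either strand.
HIST1H2BK and HIST1H2AH (chr6:27114635-27114884): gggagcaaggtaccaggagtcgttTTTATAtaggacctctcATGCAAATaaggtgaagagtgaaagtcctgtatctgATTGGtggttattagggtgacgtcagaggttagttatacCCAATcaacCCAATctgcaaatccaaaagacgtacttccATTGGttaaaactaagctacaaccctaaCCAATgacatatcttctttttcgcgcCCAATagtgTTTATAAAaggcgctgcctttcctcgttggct
HIST1H2BC and HIST1H2AC (chr6:26124155-26124399): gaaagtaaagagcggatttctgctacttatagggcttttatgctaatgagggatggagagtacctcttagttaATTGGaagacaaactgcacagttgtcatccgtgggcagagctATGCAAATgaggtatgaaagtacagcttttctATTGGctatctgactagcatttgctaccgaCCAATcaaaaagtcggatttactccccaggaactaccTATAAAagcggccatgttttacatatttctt
HIST3H2A and HIST3H2BB (chr1:228645575-228645803): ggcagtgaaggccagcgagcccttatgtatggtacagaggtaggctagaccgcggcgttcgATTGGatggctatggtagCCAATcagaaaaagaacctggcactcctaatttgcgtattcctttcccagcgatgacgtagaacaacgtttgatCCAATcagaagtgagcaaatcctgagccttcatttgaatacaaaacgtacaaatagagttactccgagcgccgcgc

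CCAAT was present in 13 of the 13 regions, TATAAA in 10 and the octamer in 9. Of all RefSeq promoters (GRCh38.p14, 300 bases each, 27305 promoters), 35.7% hold CCAAT, 12% TATAAA and 1.80% the octamer. Of the 65 histone promoters in that set, the octamer was in 11 of 16 H2A and 14 of 18 H2B, and in 0 of the 6 H1 and 13 H4 promoters. It was in 1 of 12 H3 promoters, that listed for HIST1H3D, but this entry is the same stretch as that of HIST1H2AD and does not lie at the start of HIST1H3D used here, and 0 of the 11 other H3 promoters held it. Matches of TATAAA on opposite strands can overlap, and a match is a description of the letters only.

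The genes of a pair often differed in level. HIST1H2BK stood at a mean of 1037 FPKM in DMSO and HIST1H2AH at 0.789, a ratio of 1310, and with 5 µM CBP30 the means were 3059 and 2.01 FPKM. In 10 pairs both genes were tested, and in these the H2B gene was above its H2A neighbour in all 10 samples in 6 pairs, the H2A gene in 3, and in 1 the order varied. In HIST1H2BC and HIST1H2AC, the H2A gene was the higher (103 against 26.6 FPKM in DMSO), with rises of 1.81 and 2.32 at 5 µM CBP30. In 6 of these 10 pairs both genes were called higher with 5 µM CBP30, in 2 only the H2B gene, in 1 only the H2A gene, and in 1 neither. These counts are to be read against the 34 of 46 tested histone genes called higher (21.2% of all tested genes). Whether neighbours rise together more often than other histone genes was not tested. In the other 3 pairs, HIST1H2BA and HIST1H2AA, HIST1H2BM and HIST1H2AJ, and HIST2H2BC and HIST2H2AA4, at least 1 gene was below the limit for testing. Both also rose in HIST1H2BK and HIST1H2AH, HIST1H2BJ and HIST1H2AG, HIST1H2BG and HIST1H2AE, HIST1H2BO and HIST1H2AM, and HIST1H2BF and HIST1H2AD. HIST3H2A fell from 71.6 to 44.6 FPKM while its neighbour HIST3H2BB had 0.638 and 0.984 FPKM.

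The levels also differed by gene structure. The 19 genes with an annotated transcript that ends more than 100 bases past the stem-loop had a median of 9.30 FPKM over all samples, and 10 of them had a mean of at least 5. The 48 genes whose annotation ends within 100 bases had a median of 1.07 FPKM and 12 with a mean of at least 5, among them HIST1H2BK, HIST1H1C and HIST1H3D. HIST1H2APS1, whose annotated transcript ends before the stem-loop, is counted with the 48. The genes without a stem-loop match, and HIST1H2BF, HIST1H2BG (mean of 117 FPKM) and HIST1H4F, which had no matched GENCODE transcript, are in neither group. With 5 µM CBP30, 10 of 12 tested genes of the first kind and 22 of 31 of the second were called higher (21.2% of all tested genes), and 1 of the first kind, HIST3H2A, was called lower. The 5 H2B genes with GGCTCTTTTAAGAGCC were HIST1H2BC, HIST1H2BD, HIST1H2BF, HIST1H2BJ and HIST1H2BK, a grouping made after their values were seen. All 5 were higher with 5 µM CBP30 with a median difference of 2.19, and of the 10 other tested H2B genes 8 were, with a median of 0.854. No test was made of these splits.

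Genes that make, process and use histone mRNA moved less. Over all tested genes 21.2% were higher and 25.4% lower with 5 µM CBP30, against which the counts of these lists are to be read. Of the 7 genes listed for histone transcription, 3 were higher with 5 µM CBP30 and the others did not pass the test, the 3 being CCNE2 (0.83), a cyclin that activates CDK2, CDK2 itself (0.25) and CASP8AP2 (0.40), a cofactor of histone gene transcription. Of 11 tested genes for histone pre-mRNA 3′ end processing, 4 were lower and the others did not pass, the 4 being CSTF2 (−0.48), ZNF473 (−0.38), CPSF3 (−0.35), the endonuclease of the cleavage complex, and SYMPK (−0.21). Of 9 genes for histone mRNA decay and translation, 3 were higher and the others did not pass: ZCCHC11 (0.52), a terminal uridylyltransferase, DCP2 (0.48), a decapping enzyme, and ERI1 (0.19), a 3′ exonuclease that trims histone mRNA. The median differences of these 3 lists were 0.255, −0.214 and 0.189, against 1.23 for the tested histone genes.

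Histone chaperones and supply factors were mixed, with 2 of 15 higher (ASF1B, 0.52, and RBBP7, 0.24) and 4 lower (IPO4, −0.55, ASF1A, −0.24, SSRP1, −0.23, and CHAF1A, −0.19). Among 9 tested genes for replication-independent histone variants, which are polyadenylated as a rule, 4 were higher and the others did not pass: H3F3B (0.74), H1FX (0.55), H2AFY (0.37) and H2AFV (0.25). H3F3A, among those that did not pass, was listed at 0.209 and 189.5 FPKM in the 2 DMSO samples, so its values are no measure of a change. Of 33 genes of S phase DNA replication, 8 were higher and 9 lower, shares close to those of all tested genes (21.2% and 25.4%), with a median of 0.00042. RRM2 (0.43) and RRM1 (0.27), the subunits of ribonucleotide reductase, showed the largest rises of that list, and CDT1 (−0.79), a licensing factor, and RPA2 (−0.42) the largest falls. With 5 µM I-CBP112, 1 of these 33 was higher, and of the 3 lists for making, processing and decay of histone mRNA 1 gene was, with no call among the others. The paper reports that the percentage of cells in G0/G1, the phases before S phase, rose with the CBP30 concentration. How far the share of cells in S phase moved with the histone genes was not tested here.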

How the data were processed

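Poly(A)+ RNA from K562 cells was sequenced as 50-base single reads from stranded libraries, and the authors deposited 1 FPKM value per gene and sample. The submitters' processing notes name FastQC, TopHat2 2.0.10, Bowtie 1.0.0, SAMtools 0.1.19, Cufflinks 2.2.1 and Cuffnorm with GRCh37 (hg19). The gene annotation, the treatment of reads with several matches and whether counting used strand are not given in the sources used here. Column names matched the sample titles. Read totals are unknown, so no counting error was derived.

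The scale of analysis was log2(FPKM + 1). The moderated test of limma 3.58.1 (R 4.3.3, lmFit, eBayes with trend) was used, with 5 groups in 1 fit and 5 residual degrees of freedom. Genes averaging 0.5 FPKM or more were tested, 8 comparisons were made, and Benjamini-Hochberg adjusted p under 0.05 over all genes was called. Intervals are 95% intervals of the moderated difference. The fit was also run on simulated data with the same spread for every gene and changes only in genes above a set level. That run gives no support for the calls of low histone genes. Class sums are described without tests. Histone genes named are those averaging 5 FPKM or more, those called in at least 1 comparison, and low copies such as the testis genes, and any other is named for its pair or its lack of a call. The members and gene lists were chosen with earlier results of these data known. Alternatives comprised quantile normalization, median centring, a pseudocount of 0.1, testing without a filter, fits of only the groups compared, a replicate block, removal of the trend with transcript length (lowess span of 0.3), and leaving out each sample. The replicate numbers come from the titles, and the deviations of same-numbered samples had correlations between −0.0681 and 0.0939 over 10 pairs of conditions.

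Positions come from GENCODE transcripts on GRCh37 (70 of 73 genes by symbol, 3 by an exact match of the RefSeq start) and promoters from RefSeq. Python 3.11.15, pandas 2.3.3 and matplotlib 3.10.9 were used for tables and figures.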

Additional observations from a re-analysis of the deposited data

How the results depend on the processing

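Of the 35 histone genes called with 5 µM CBP30 against DMSO, 31 kept their call in all 7 processing alternatives, 27 when any of the 10 samples was left out, and 27 in all of these. The corresponding number kept in all was 10 of 22 for 2 µM CBP30, 11 of 17 for 5 µM I-CBP112 and 2 of 11 for 2 µM I-CBP112. Between compounds at 5 µM it was 14 of 27, and it was 0 for the 3 other comparisons.

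With only the compared groups fitted, the number of histone genes higher was 10 for 2 µM CBP30 against DMSO, 4 for 2 µM I-CBP112 against DMSO, and 0 for 5 against 2 µM CBP30, for 5 against 2 µM I-CBP112 and for the compounds at 2 µM, and the number lower was 0 for 5 against 2 µM CBP30 and 1 for the compounds at 5 µM. Such a fit holds 4 samples. With the length trend removed, 35 were higher for 5 against 2 µM CBP30, 6 for 5 against 2 µM I-CBP112 and 11 for the compounds at 2 µM, and 1 was lower for the compounds at 2 µM and 1 at 5 µM. Quantile normalization gave 6 higher for 5 against 2 µM I-CBP112, and no filter gave 1 lower for the compounds at 5 µM. The replicate numbers did not pair the samples by the correlations given, and the replicate block gave 1 higher for 5 against 2 µM I-CBP112, 1 lower for the compounds at 5 µM and otherwise counts within 1.5 times those reported. The cause of these shifts was not tested.

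When single samples were left out, the number higher than in DMSO ranged from 28 to 37 for 5 µM CBP30, from 16 to 24 for 2 µM CBP30, from 11 to 19 for 5 µM I-CBP112 (11 without either of its samples) and from 4 to 15 for 2 µM I-CBP112 (4 without DMSO replicate 2 or its own replicate 1, 5 without its replicate 2, 6 without DMSO replicate 1, 7 without either 5 µM CBP30 sample). The number lower with 5 µM CBP30 ranged from 0 to 1, with 0 without DMSO replicate 1 or 5 µM CBP30 replicate 1. For 5 against 2 µM CBP30 the number higher ranged from 9 to 22, and the number lower from 0 without 5 µM CBP30 replicate 1 to 4 without 2 µM CBP30 replicate 2. For 5 against 2 µM I-CBP112 the number higher ranged from 0 to 9. Between compounds at 5 µM it ranged from 15 to 29, with 0 to 2 lower, and at 2 µM from 9 to 20, with 0 to 1 lower.

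Differences between 5 and 2 µM CBP30 reversed for HIST1H1C with quantile normalization (0.414) and with the length trend removed (0.265), and, without replicate 2 of 2 µM CBP30, for HIST1H2AE (−0.191, against 0.305 without replicate 1) and HIST1H2BK (−0.175, against 0.223), where replicate 1, which stands apart, is the lone sample of that concentration and is assumed to vary like the other groups. With 2 samples a group and FPKM without counts, small differences of genes below a few FPKM were not detectable.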
